A study of Mus musculus with 4 samples.

Results

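The 8 genes described here encode receptors with which macrophages take up particles, modified lipids and dead cells: Marco, Msr1, Cd36, Cd68, Mertk, Axl, Trem2 and Gpnmb. They were chosen by name as the scavenger and dead-cell uptake receptors of macrophages, and all 8 were among the 13838 genes counted. Each was followed across the 17 refined cell types that the authors assigned and across 4 libraries of single cells washed from mouse airspaces. A level is given in CPM, that is, the unique molecular identifiers (UMIs) counted for a gene in 1 class of cells, divided by all UMIs of that class and scaled to the same total for every class.

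The cells came from bronchoalveolar lavage of C57BL/6 mice, and lavage cells of 7 mice were pooled into each library. HDM+APM mice were exposed whole-body to APM, particulate matter from Afghanistan, over 12 days (5 mg/m3, 6 hours daily), and afterwards received house dust mite (HDM), an allergen, in PBS through the nose. HDM mice breathed filtered air and received HDM, APM mice breathed the dust and received PBS, and control mice breathed filtered air and received PBS. The first 10 µg dose of HDM followed 9 days after the last dust exposure: mice were sensitized on days 22 and 29, challenged on days 36, 37 and 38, and lavaged on day 39. The study was designed to compare airspace cells after dust, allergen or both. With 1 pooled library per group there is no replicate check and no test. Every interval below is a 95% interval that covers counting error only, and every difference describes these 4 libraries.

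Macrophages clear the airspaces of inhaled particles, surfactant lipid and dying cells. Scavenger receptors such as Marco and Msr1 bind polyanionic surfaces of particles and microbes, Cd36 takes up oxidized lipids and long-chain fatty acids, and Cd68 is a heavily glycosylated protein of late endosomes and lysosomes. Mertk and Axl are receptor tyrosine kinases that recognise phosphatidylserine on dying cells through the bridging proteins Gas6 and Pros1. Trem2 binds lipids and apolipoproteins and signals through the adaptor Tyrobp, and Gpnmb is a transmembrane glycoprotein of lysosomes and melanosomes that lipid-loaded macrophages express.

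The HDM+APM, HDM, APM and control libraries held 1123, 994, 3890 and 3918 cells, with median depths of 4780, 1380, 2637 and 3417 UMIs per cell. Of 9883 barcode sequences, 42 were found in more than 1 library. Macrophages fell into 10 numbered clusters. Macrophages 1 to 7, 9 and 10 were pooled and held 46, 60, 3501 and 3776 cells in the HDM+APM, HDM, APM and control libraries. Macrophage 8 was kept apart and held 110, 139, 214 and 110 cells. Its UMIs carried 3253 CPM of monocyte-derived macrophage markers over all libraries, against 586 to 1246 CPM in the other macrophage clusters. They also carried 33316 CPM of alveolar macrophage markers, against 10913.5 to 23022 CPM in the other macrophage clusters. Gene by gene within libraries, that list leaned the other way, with median log2 ratios of Macrophage 8 over the pooled clusters below 0. Of its 17 markers, 14 were past 1.5-fold lower (defined below) and 0 higher in the APM library. In control 7 were lower and 0 higher, and in HDM 9 were lower and 1 was higher. The 308 cells that the authors named classical monocyte came from the HDM+APM library alone. Their marker sums were 13445 CPM for alveolar macrophages, 10947 CPM for monocyte-derived macrophages, 9024 CPM for cavity macrophages and 7102 CPM for monocytes. Sums of different lists are not ranked against each other. Of the 10 leading genes of these cells, 4 were cavity macrophage markers, 3 monocyte-derived macrophage markers and 0 alveolar macrophage or monocyte markers. These cells are therefore called here the cells named classical monocyte. No member was among the 10 leading genes of any cluster, but the clusters were drawn from all genes, so levels across clusters are a description.

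Marco, Cd36, Cd68, Mertk, Axl, Trem2 and Gpnmb were highest in macrophage clusters and low in lymphocytes, whereas Msr1 was highest in the cells named classical monocyte. Marco was highest in Macrophage 9, at 484 CPM over all libraries, and lay between 245 and 396 CPM in Macrophages 1 to 7 and 10. It was 135 CPM in Macrophage 8, 24.3 CPM in dendritic cells, 15.9 CPM in the cells named classical monocyte and 3.86 to 7.56 CPM in T cells and both B cell clusters. The steps down from Macrophage 10 to Macrophage 8 and from Macrophage 8 to dendritic cells exceeded counting error, whereas neighbours among Macrophages 7, 4, 2 and 5 did not differ beyond it.

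Msr1 ran the other way. It was 156 CPM in the cells named classical monocyte, 20.2 CPM in Macrophage 8, 10.3 CPM in Macrophage 7 and at most 7.92 CPM in the other macrophage clusters. It had 0 UMIs in Macrophages 9 and 10, dendritic cells, granulocyte-like cells and epithelial-labelled cells. The steps from the cells named classical monocyte to Macrophage 8 and from Macrophage 8 to Macrophage 7 exceeded counting error, and no later neighbours differed beyond it.

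Cd36 was highest in Macrophage 9 at 495 CPM and Macrophage 5 at 418 CPM, both apart from their lower neighbour. Macrophage 2, Macrophage 3 and the cells named classical monocyte followed at 320, 316 and 306 CPM and did not differ beyond counting error. Dendritic cells held 69.4 CPM, and the epithelial-labelled cells, 4 of whose 10 leading genes were red blood cell markers, held 216 CPM from 49 UMIs. Lymphocytes lay at 13.2 to 26.6 CPM, and granulocyte-like cells, at 6.61 CPM, were the lowest of all 17 types.

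Cd68, Trem2 and Gpnmb all peaked in Macrophage 3. Cd68 was 813 CPM there, 514 to 536 CPM in Macrophages 9, 2 and 5, and 285 to 388 CPM in Macrophages 1, 4, 6, 7, 8 and 10. Trem2 was 232 CPM in Macrophage 3 and 57.9 to 132 CPM in the other macrophage clusters. Gpnmb was 741 CPM in Macrophage 3, 525 CPM in Macrophage 2, 442 CPM in Macrophage 5 and 157 to 386 CPM in the other macrophage clusters. The lead of Macrophage 3 over the next cluster exceeded counting error for each of the 3 genes. Within single libraries the Gpnmb peak was as clear: it was 837 CPM in APM Macrophage 3 and 557 CPM in APM Macrophage 2, and 715 CPM in control Macrophage 3 and 492 CPM in control Macrophage 2. The Trem2 peak was less so. In the APM library Macrophage 3 held 154 CPM of Trem2, Macrophage 8 held 162 CPM and the other clusters 56.0 to 109 CPM. In the control library Macrophage 3 held 245 CPM, Macrophage 10 held 237 CPM from 6 UMIs and Macrophage 8 held 203 CPM. Gpnmb and Trem2 stood at places 21 and 17 among the genes with the highest fold in Macrophage 3, and were themselves among the genes from which the cluster was drawn.

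The cells named classical monocyte were low in these lysosomal and lipid-sensing receptors. They held 138 CPM of Cd68, 12.8 CPM of Gpnmb and 4.27 CPM of Trem2, which for Gpnmb was within counting error of T cells and B cells 2, at 16.7 and 9.44 CPM, and for Trem2 within counting error of dendritic and granulocyte-like cells, at 3.47 and 6.61 CPM. Granulocyte-like cells, at a median of 692 UMIs per cell, held 317 CPM of Cd68 from 48 UMIs and 159 CPM of Gpnmb from 24 UMIs, with Marco at 13.2 CPM from 2 UMIs.

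The kinase receptors Mertk and Axl had another profile. Axl was highest in Macrophage 6 at 581 CPM and Macrophage 1 at 546 CPM, 336 to 505 CPM in Macrophages 2, 3, 4, 5, 7, 8 and 10, and 238 CPM in Macrophage 9. Dendritic cells held 135 CPM of Axl, granulocyte-like cells 52.9 CPM and the cells named classical monocyte 16.5 CPM, which was within counting error of the 12.3 CPM of T cells. Mertk was 111 to 121 CPM in Macrophages 4, 5, 6 and 1, whose neighbours did not differ beyond counting error, and 57.0 to 76.7 CPM in Macrophages 8, 7, 10, 2 and 3. Macrophage 9 held 17.5 CPM of Mertk from 11 UMIs, lower than any other macrophage cluster. The cells named classical monocyte held 60.4 CPM of Mertk, so they carried this kinase at a level within counting error of Macrophages 2 and 3 while Axl was near the lymphocyte level. T cells had 0 Mertk UMIs.

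**Figure D1:**
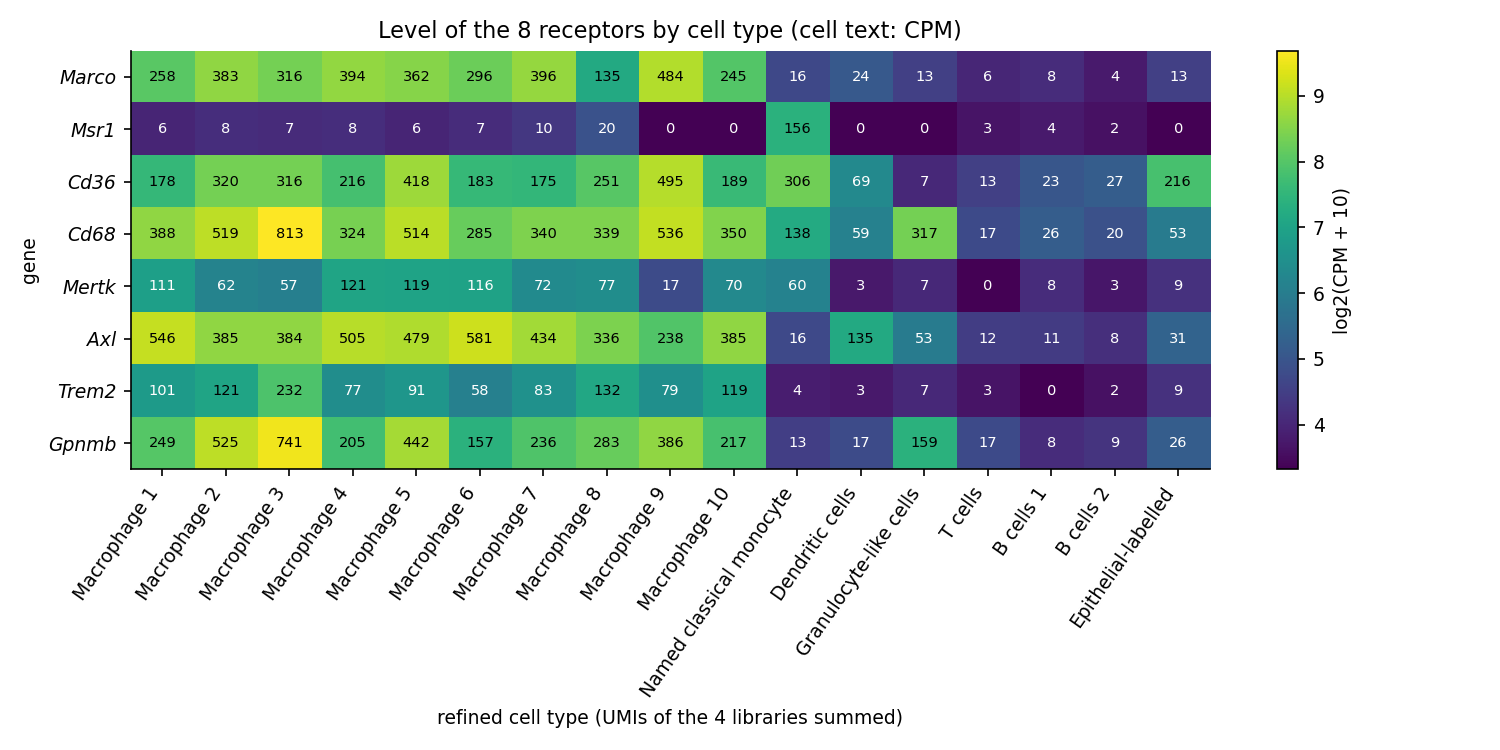
Level of each receptor (rows) in each of the 17 refined cell types (columns), UMIs of the 4 libraries summed. Colour is log2(CPM + 10) and the printed number is CPM. Cd68, Trem2 and Gpnmb peak in Macrophage 3, Msr1 stands at 156 CPM in the cells named classical monocyte, and all 8 rows are low in lymphocytes.

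Across the 10 macrophage clusters, log2(CPM + 10) of Cd68 and Gpnmb varied together, with a Pearson r of 0.96, and so did Mertk and Axl, with r = 0.92. Cd36 varied against Axl, with r = -0.63, and Marco and Axl showed r = -0.07. The points share libraries and differ in depth: with log2 median UMIs of the cluster, r was 0.78 for Cd68, 0.67 for Gpnmb, -0.44 for Mertk and -0.31 for Axl. Within the APM library alone, over 9 clusters that included Macrophage 8, r was 0.93 for Cd68 with Gpnmb and 0.92 for Mertk with Axl. Within the control library, over 7 clusters, r was 0.86 and 0.98 for the same pairs. Trem2 and Gpnmb had r = 0.72 over the 10 clusters, 0.65 within the APM library and 0.30 within the control library. These values are descriptions of few points.

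Over all 17 cell types and among 5137 genes ranked, the genes whose pattern was most like each member differed between members. Nearest to Marco were Lrp12, Slc36a4 and Dst, at r = 0.97 to 0.98. For Axl they were Ddhd1, Anxa5, which encodes a phosphatidylserine-binding annexin, and Wfdc10, at r = 0.97 to 0.98. Mertk lay nearest to Shtn1, Kcnn3 and Tnfrsf21, at r = 0.95 to 0.96. The 3 genes nearest to Cd68 were Creg1, Atp6v1e1, a subunit of the vacuolar proton pump, and Tpp1, a lysosomal peptidase, each at r = 0.97. Nearest to Trem2 were Ctsk, a cysteine protease, Clec1b and Slc36a4, at r = 0.96 to 0.97, and nearest to Gpnmb were Vat1, Pgd and Ctnnb1, each at r = 0.96. Cd36 had weaker matches in Gaa, the lysosomal glucosidase, Lyz2 and Fkbp2, at r = 0.91 to 0.92. Msr1 stood with Plxdc2, Gm1673 and Engase, at r = 0.94 to 0.97, all of which were also highest in the cells named classical monocyte. The points share libraries and the contrast of macrophages with lymphocytes, which raises r for any macrophage gene.

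Promoters are shown for the 3 genes that peaked together in Macrophage 3. Each sequence is the RefSeq window (GRCm38.p6, the same build as mm10) from 250 bases before to 50 bases after the gene's start, 5′ to 3′ on the gene's strand. Of the 8 members, 7 had an entry in the promoter table. Capitals mark each match to the AP-1 motif TGANTCA, which was searched on both strands.
Cd68: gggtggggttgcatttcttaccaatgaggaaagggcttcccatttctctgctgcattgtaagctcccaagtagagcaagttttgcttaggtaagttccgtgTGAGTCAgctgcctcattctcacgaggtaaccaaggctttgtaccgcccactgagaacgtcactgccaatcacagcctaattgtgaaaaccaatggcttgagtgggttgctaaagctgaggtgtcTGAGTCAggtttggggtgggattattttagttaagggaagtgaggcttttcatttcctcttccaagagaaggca
Trem2: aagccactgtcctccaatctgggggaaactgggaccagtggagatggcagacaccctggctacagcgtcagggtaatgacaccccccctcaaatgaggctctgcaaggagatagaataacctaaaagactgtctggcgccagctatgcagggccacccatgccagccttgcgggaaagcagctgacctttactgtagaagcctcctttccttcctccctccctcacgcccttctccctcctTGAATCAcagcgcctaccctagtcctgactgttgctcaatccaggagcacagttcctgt
Gpnmb: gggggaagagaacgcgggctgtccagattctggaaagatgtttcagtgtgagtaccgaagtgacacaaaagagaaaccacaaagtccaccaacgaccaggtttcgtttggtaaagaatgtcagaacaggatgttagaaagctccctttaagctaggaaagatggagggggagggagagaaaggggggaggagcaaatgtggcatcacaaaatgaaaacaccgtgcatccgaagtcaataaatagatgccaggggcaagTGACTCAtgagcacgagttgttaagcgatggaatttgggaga
The Cd68 window is chr11:69666121-69666420 on the minus strand, the Trem2 window chr17:48346151-48346450 on the plus strand and the Gpnmb window chr6:49036268-49036567 on the plus strand. The Cd68 window held 2 matches and the Trem2 and Gpnmb windows 1 each, while the Marco, Cd36, Mertk and Axl windows held 0. The Cd36 window, chr5:17835847-17836146 on the minus strand, lies inside the annotated gene, which runs up to chr5:17888801. Its 0 thus describes an internal start of Cd36. Of all 32851 promoters of that length, 7.81% held at least 1 match. In the Cd68 window the first match shares its last bases with the window's 1 match to the E-box CANNTG. AP-1 was 1 of 8 motifs searched and the 1 motif shown, and the 3 genes were grouped by their levels in these same data. The split of the 7 windows is therefore a description. A match is a run of letters, not a shown binding site. The other 7 motifs did not separate these 3 genes from the other 4: for example, the PU.1 core GAGGAA was in the Marco, Cd68, Axl and Trem2 windows and in 28.3% of all promoters.

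In the genome (mm10, GENCODE annotation), Marco lies at chr1:120474538-120505024, Msr1 at chr8:39581685-39642673, Cd36 at chr5:17781690-17888801, Cd68 at chr11:69664213-69666153, Mertk at chr2:128698956-128802894, Axl at chr7:25757273-25788705, Trem2 at chr17:48346401-48354147 and Gpnmb at chr6:49036546-49070929. All 8 are protein-coding. Mertk is overlapped by the antisense gene Gm14011 and the small RNA gene Gm23172, neither of which is in the matrix, and no other member is overlapped by an annotated gene.

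Dust alone was followed in the pooled macrophage clusters, where the APM and control libraries had 3501 and 3776 cells. In the 9 pooled clusters, Trem2 was lower after APM and the other members differed less. Trem2 was 85.7 CPM in the APM library and 157 CPM in the control library, a 1.83-fold lower level (1.69 to 1.97). Gpnmb was 353 CPM in the APM library and 494 CPM in control, 1.40-fold lower (1.35 to 1.46), and Cd68 was 430 CPM in APM and 590 CPM in control, 1.37-fold lower (1.32 to 1.42). All 3 genes that peak in Macrophage 3 were therefore lower in the APM sum. Marco was 406 CPM in APM and 304 CPM in control, 1.34-fold higher (1.28 to 1.39). Mertk was 98.0 CPM in APM and 77.7 CPM in control, 1.26-fold higher (1.16 to 1.37). Cd36, at 301 CPM in APM and 278 CPM in control, and Axl, at 432 CPM in APM and 460 CPM in control, had ratios of 1.08 and 0.941. Msr1, at 7.47 CPM in APM and 6.29 CPM in control, had an interval that included 1.

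A gene was counted as past 1.5-fold on the log2(CPM + 10) scale, which understates the ratio of low genes, if it had at least 20 UMIs over both sums. By that count 1 of 8 members was past 1.5-fold lower after APM, namely Trem2 at a log2 ratio of -0.80, and 0 were past it higher. Over all 10893 genes measured, 0.496% were past 1.5-fold lower and 0.78% higher. The median log2 ratio was 0.01 over the members and 0.01 over all genes.

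The clusters' shares of the pooled cells also differed between the APM and control libraries. Macrophage 3, where Cd68, Trem2 and Gpnmb peaked, gave 179 of the 3501 pooled APM cells and 906 of the 3776 pooled control cells. Cluster shares were made equal by a mean of the cluster log2 ratios over 8 clusters, weighted by the cells of both libraries. It took clusters of at least 20 cells in both, so Macrophages 4 and 6 entered with 22 and 42 control cells. By that mean the log2 ratio of Cd68 was 0.02 instead of -0.45 and that of Gpnmb was -0.22 instead of -0.47. Trem2 was at -0.47 instead of -0.80, so no member was then past 1.5-fold. In the 7 clusters with at least 50 cells in both libraries, Macrophage 8 among them, Cd68 was lower after APM in 6. Marco kept a log2 ratio of 0.36 by the weighted mean, against 0.41 in the sums. The part of cluster shares in these differences was not tested.

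Within single clusters, Trem2, Axl and Marco each differed in 1 direction. Macrophages 1, 2, 3, 5, 7, 8 and 9 had at least 50 cells in both the APM and the control library. Trem2 was lower after APM in 7 of 7 clusters, with an interval below 1 in 3 of them. In Macrophage 3 it was 154 CPM in APM and 245 CPM in control, 1.59-fold lower (1.34 to 1.90), and it was the 1 member past 1.5-fold lower there, against 2.28% of genes. Axl was also lower in 7 of 7 clusters, with an interval below 1 in 4. In Macrophage 5 Axl was 426 CPM in APM and 518 CPM in control, 1.22-fold lower (1.12 to 1.32), a difference that the sum of clusters, at 1.06-fold lower, hardly showed. Marco was higher after APM in 7 of 7 clusters, with an interval above 1 in 5, and its log2 ratio ranged from 0.06 to 0.55.

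The other members were less even across clusters. Cd36 was 387 CPM in APM and 254 CPM in control Macrophage 2, 1.52-fold higher (1.35 to 1.72), and was the 1 member past 1.5-fold higher there, against 1.58% of genes. In Macrophage 3 Cd36 was 412 CPM in APM and 298 CPM in control, 1.38-fold higher (1.23 to 1.55), whereas its interval included 1 in the other 5 clusters. Gpnmb was higher after APM in Macrophages 2 and 3 and lower in Macrophages 1, 5 and 7, each with an interval that excluded 1. In Macrophage 3 Gpnmb was 837 CPM in APM and 715 CPM in control, and in Macrophage 7 it was 189 CPM in APM and 285 CPM in control. Gpnmb and Trem2 thus differed in opposite directions within Macrophage 3, the cluster where both were highest. Mertk was measured in 6 clusters and its interval included 1 in each, and Cd68 had an interval below 1 in Macrophage 3 alone.

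**Figure D2:**
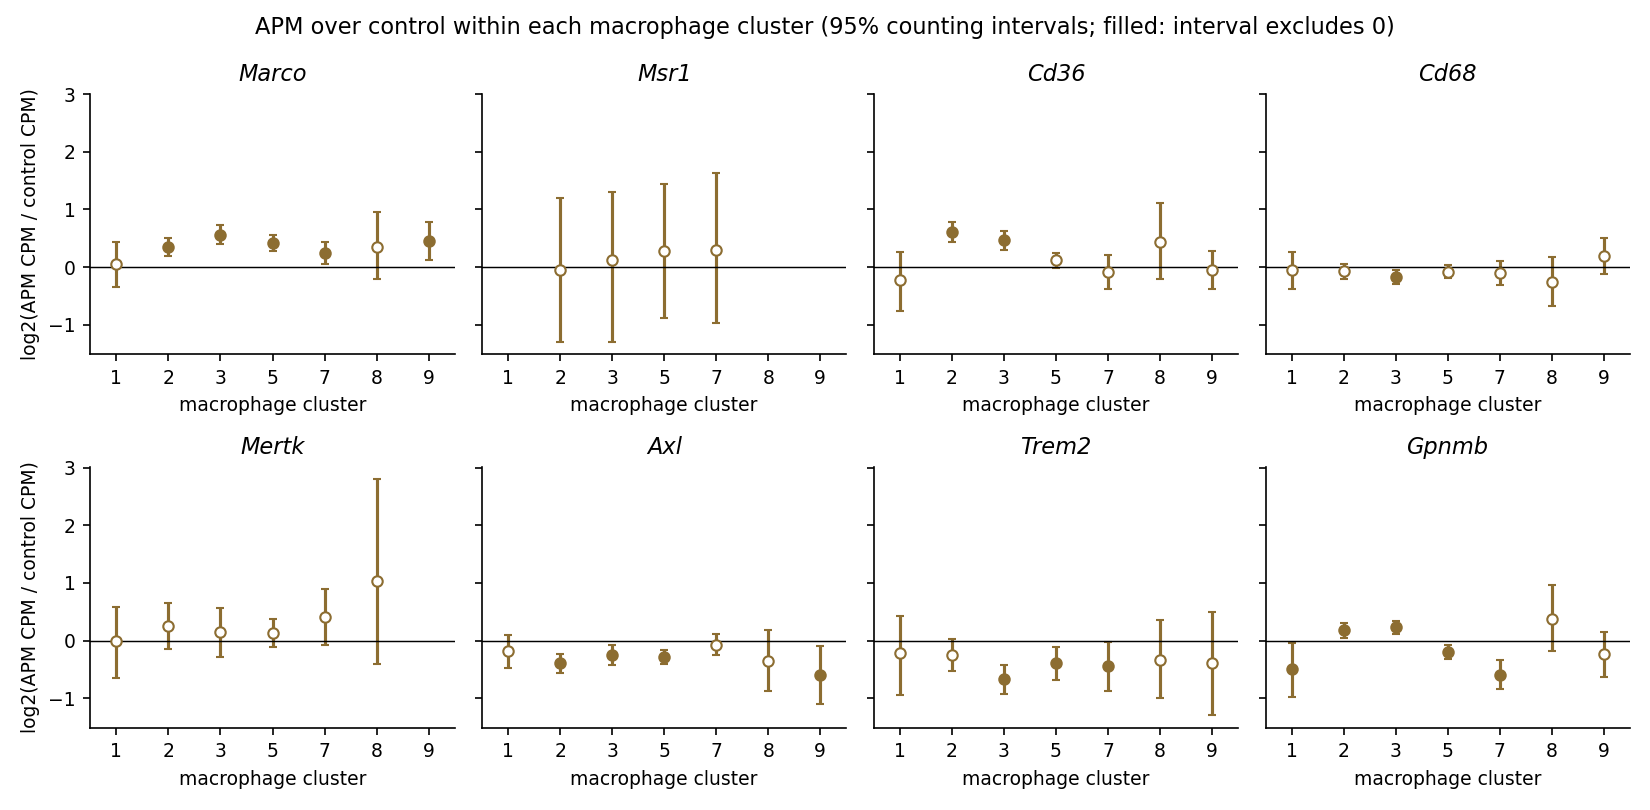
Log2 ratio of APM CPM over control CPM (vertical axis) within each of the 7 macrophage clusters (horizontal axis) that had at least 50 cells in both libraries, 1 panel per receptor. Bars are 95% counting intervals, filled points have intervals that exclude 0, and ratios with under 20 UMIs are not drawn. Marco lies above 0 and Trem2 and Axl below 0 in all 7 clusters.

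Transcripts of other cells differed in the same comparison. Epithelial markers summed to 2496 CPM in the pooled APM macrophages and 573 CPM in the pooled control macrophages, and 9 of 12 measured were past 1.5-fold higher. Red blood cell markers summed to 5667 CPM in APM and 507 CPM in control, with 5 of 6 measured past 1.5-fold higher. Their part in the member differences was not tested. Median depth was 2637 UMIs per cell in the APM library and 3417 in control.

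Among the partners of the members in the same sums, other dead-cell receptors had 2 of 9 measured genes past 1.5-fold lower after APM and 0 higher, with a median log2 ratio of -0.18. Treml4, which encodes a Trem-family receptor, was 16.6 CPM in APM and 42.5 CPM in control, 2.56-fold lower (2.16 to 3.04). Cd300a, an inhibitory receptor that binds phosphatidylserine, was 36.5 CPM in APM and 70.9 CPM in control, 1.94-fold lower (1.73 to 2.19). No measured gene of 7 other scavenger receptors, 9 bridging molecules, 15 engulfment signalling genes or 9 shedding and brake genes was past 1.5-fold either way. Of 16 genes for handling cargo lipid, 2 were lower and 0 higher: Fabp5, a fatty acid binding protein, at 1733 CPM in APM and 2978 CPM in control, and Lipa, the lysosomal acid lipase, at 378 CPM in APM and 614 CPM in control. Among 16 transcription factors tied to the members, Cebpb was the 1 past 1.5-fold, at 1770 CPM in APM and 722 CPM in control, 2.45-fold higher (2.40 to 2.51). Of 16 lipid-associated macrophage genes, 3 were lower, namely Fabp5, Lipa and the protease gene Ctsb, and 1 was higher, namely Spp1, which encodes osteopontin, at 503 CPM in APM and 317 CPM in control. The medians of the lists ranged from -0.18 for other dead-cell receptors to 0.32 for bridging molecules.

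The HDM library held few of these macrophages, 60 cells against 3776 in control. In them Mertk was higher and Marco lower. Mertk was 194 CPM in HDM and 77.7 CPM in control, 2.50-fold higher (1.85 to 3.31). Marco was 126 CPM in HDM and 304 CPM in control, 2.42-fold lower (1.72 to 3.52), although cells thinned to 1000 UMIs gave a log2 ratio of -0.57 in place of -1.21 and were no longer past 1.5-fold. Cd68 was 347 CPM in HDM and 590 CPM in control, 1.70-fold lower (1.38 to 2.11).

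Cd36 was 423 CPM in HDM and 278 CPM in control, 1.52-fold higher (1.25 to 1.83), but 79 of its 111 UMIs in the HDM library came from 17 Macrophage 5 cells. Its log2 ratio was 0.59, and 0.27 without the 5% of cells with the most UMIs. It was 0.35 as a mean over cells and 0.41 under median-of-ratios scaling, and none of these alternatives was past 1.5-fold. Axl was 621 CPM in HDM and 460 CPM in control, 1.35-fold higher (1.15 to 1.58). The intervals of Trem2, at 126 CPM in HDM and 157 CPM in control, and of Gpnmb, at 552 CPM in HDM and 494 CPM in control, included 1. In all, 2 of 8 members were past 1.5-fold higher and 2 lower, against 11.5% and 9.17% of 10358 genes measured. Mrc1, the mannose receptor, was 689 CPM in HDM and 341 CPM in control, and Mfge8, a bridging protein between phosphatidylserine and integrins, was 72.4 CPM in HDM and 18.4 CPM in control. Tyrobp, the adaptor through which Trem2 signals, was 2430 CPM in HDM and 4147 CPM in control, 1.71-fold lower (1.58 to 1.85). Alveolar macrophage markers summed to 44319 CPM in HDM and 15417 CPM in control, but 6 of 17 were past 1.5-fold higher and 3 were lower (median log2 ratio 0.45). Red blood cell markers summed to 2053 CPM in HDM and 507 CPM in control. The part of both lists was not tested. No cluster had 20 cells in both libraries, so the part of cluster shares cannot be told apart from the group here. In the HDM+APM library the pooled clusters gave 46 cells, with 331 CPM of Marco, 284 CPM of Cd36, 489 CPM of Cd68, 146 CPM of Mertk, 446 CPM of Axl, 130 CPM of Trem2 and 489 CPM of Gpnmb, and no ratio was taken.

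Macrophage 8 was the macrophage cluster with enough cells in every library. Marco separated the allergen libraries from the others in it. Marco was 64.4 CPM in HDM+APM and 67.5 CPM in HDM, against 293 CPM in APM and 229 CPM in control. The intervals of the HDM+APM and HDM libraries lay wholly below those of APM and control. Mertk was 64.4 CPM in HDM+APM, 113 CPM in HDM, 65.4 CPM in APM and 31.8 CPM in control, the last from 5 UMIs. Cd36 was 201 CPM in HDM+APM, 337 CPM in HDM, 240 CPM in APM and 178 CPM in control. HDM was the highest library for both Mertk and Cd36.

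Cd68 was 338 CPM in HDM+APM, 250 CPM in HDM, 398 CPM in APM and 477 CPM in control. Trem2 was 90.6 CPM in HDM+APM, 131 CPM in HDM, 162 CPM in APM and 203 CPM in control. For both genes the allergen libraries were the lower ones, with intervals that overlapped in part. Axl, at 352 CPM in HDM+APM, 385 CPM in HDM, 249 CPM in APM and 318 CPM in control, and Gpnmb, at 286, 281, 305 and 235 CPM in HDM+APM, HDM, APM and control, varied least. Msr1 had 11 UMIs in HDM+APM, 15 in HDM, 2 in APM and 1 in control, that is, 22.2, 32.7, 6.23 and 6.36 CPM. The ratio of HDM+APM over HDM for Msr1 in Macrophage 8 was 0.678 (0.282 to 1.58). The HDM+APM library held 308 cells named classical monocyte and the HDM library held 0. The part of those cells in the Msr1 of Macrophage 8 was not tested.

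**Figure D3:**
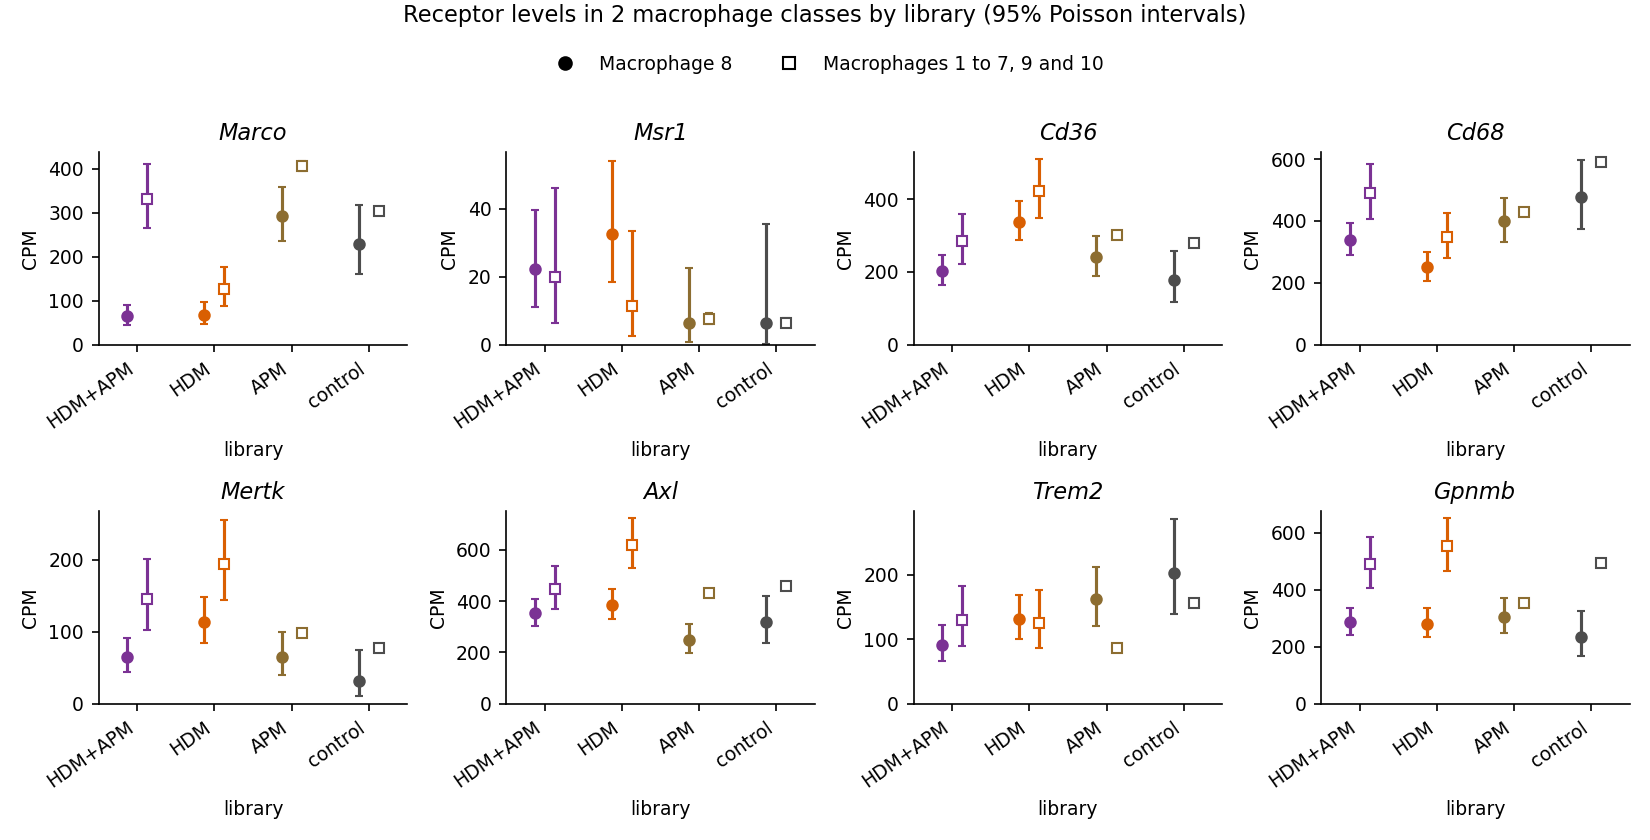
CPM of each receptor (vertical axis) in each library (horizontal axis), for Macrophage 8 (filled circles) and the 9 other macrophage clusters pooled (open squares). Bars are exact Poisson 95% intervals. In Macrophage 8, Marco lies at 64.4 and 67.5 CPM in the HDM+APM and HDM libraries, below the APM and control libraries at 293 and 229 CPM.

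Set against control, the HDM library's Macrophage 8 had 2 of 7 measured members past 1.5-fold higher and 3 lower, against 22.6% and 15.2% of 4024 genes. Marco was 3.39-fold lower (2.04 to 5.67), Cd68 1.90-fold lower (1.40 to 2.57) and Trem2 1.56-fold lower (0.981 to 2.43), an interval that included 1. Mertk was 3.56-fold higher (1.43 to 11.4) and Cd36 1.90-fold higher (1.26 to 2.95). Cd36, at a log2 ratio of 0.89, was no longer past 1.5-fold as a mean over cells, at 0.47, or without the 5% of cells with the most UMIs, at 0.55. Trem2, at -0.60, was not past it under 5 of the alternatives, at -0.57 to -0.43. The members' median log2 ratio was 0.25, against 0.07 over all genes.

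APM over control in Macrophage 8 had 1 of 7 members past 1.5-fold, with 11.1% of 3262 genes past it higher and 10.3% lower. That member was Mertk, 2.06-fold higher on 21 and 5 UMIs, with an interval of 0.755 to 6.98. All 7 intervals included 1 there.

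HDM+APM over HDM asked what dust added to allergen. Cd36 was 1.68-fold lower (1.30 to 2.18) and Mertk 1.76-fold lower (1.11 to 2.82), and these were the 2 of 8 members past 1.5-fold lower, with 0 higher, against 11.2% and 7.03% of 5176 genes. Cd68 was 1.35-fold higher (1.06 to 1.73). Neither of the 2 was past 1.5-fold without the 5% of cells with the most UMIs, or with the mean over cells in place of the sum.

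HDM+APM over APM asked what allergen added to dust. Marco was 4.54-fold lower (3.01 to 7.01) and Trem2 1.79-fold lower (1.18 to 2.72), and 2 of 7 measured members were past 1.5-fold lower and 0 higher, against 15.1% and 13.3% of 4726 genes. Axl was 1.42-fold higher (1.08 to 1.87). As a mean over cells, Trem2 had a log2 ratio of -0.21 in place of -0.77. The 4 comparisons share libraries, so their directions are not independent of each other.

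Depth and other cells' transcripts also differed between the Macrophage 8 sums. Median depth was 4840 UMIs per cell in HDM+APM, 3056 in HDM, 1218.5 in APM and 1176 in control. Epithelial markers summed to 1903 CPM in HDM+APM, 692 CPM in HDM, 4918 CPM in APM and 16380 CPM in control, and red blood cell markers to 42.3, 6197, 19554 and 375 CPM in the same libraries. Alveolar macrophage markers, all 17 of which had UMIs in every library, summed to 42151 CPM in HDM+APM, 47764 CPM in HDM, 9982 CPM in APM and 10895 CPM in control. The list did not move as 1: in HDM over control 7 of its 15 measured genes were past 1.5-fold higher and 4 lower (median log2 ratio 0.56), and in HDM+APM over APM 8 of 17 were higher and 5 lower (median 0.28). Monocyte markers split the libraries as Marco did, in the other direction, with sums of 1859 CPM in HDM+APM and 1422 CPM in HDM, against 361 CPM in APM and 356 CPM in control. All 5 measured monocyte markers were past 1.5-fold higher in HDM over control, with a median of 2.48, and all 5 in HDM+APM over APM, with a median of 2.25. Granulocyte markers summed to 1001 CPM in HDM+APM, 2119 CPM in HDM, 557 CPM in APM and 280 CPM in control, and all 3 measured were past 1.5-fold higher in HDM over control. Cavity macrophage markers summed to 483 CPM in HDM+APM, 13.1 CPM in HDM, 21.8 CPM in APM and 25.4 CPM in control. B cell markers summed to 425, 74.0, 15.6 and 25.4 CPM in the same libraries. In HDM+APM over HDM, all 4 measured cavity macrophage markers and all 3 measured B cell markers were past 1.5-fold higher, and likewise in HDM+APM over APM. The part of all these lists in the differences of Marco, Trem2 and the other members was not tested. Thinned to 1000 UMIs, the ratio of Marco stayed past 1.5-fold in both comparisons that had it lower.

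Partners of the members in Macrophage 8 are given as values, since 22.6% of all genes were past 1.5-fold higher and 15.2% lower in HDM over control. In that comparison, 3 of 7 measured other scavenger receptors were past 1.5-fold higher and 0 lower. Mrc1 was 590 CPM in HDM and 178 CPM in control, 3.32-fold higher (2.24 to 5.08), and Cxcl16, a scavenger receptor that is also a chemokine, was 257 CPM in HDM and 82.6 CPM in control. Adam17, the protease that cleaves Mertk and Trem2 from the cell surface, was 142 CPM in HDM and 38.1 CPM in control, among 4 higher and 1 lower of 8 shedding and brake genes. All 5 transcription factors past 1.5-fold, of 13 measured, were higher, led by Tfec at 84.9 CPM in HDM and 25.4 CPM in control. The control sum held 157323 UMIs in all, in which the 31.8 CPM of Mertk was 5 UMIs. The control levels of Cxcl16, Adam17 and Tfec therefore rest on few UMIs. Spp1 was 1043 CPM in HDM and 292 CPM in control, among 4 higher and 2 lower of 15 lipid-associated macrophage genes, shares near those of all genes. In HDM+APM over HDM, Cxcl16 was 141 CPM in HDM+APM and 257 CPM in HDM, and Olr1, a receptor for oxidized lipoprotein, was 113 CPM in HDM+APM and 198 CPM in HDM. Tyrobp was 2340 CPM in HDM+APM and 1459 CPM in HDM, 1.60-fold higher (1.46 to 1.77). Trem2 itself was 90.6 CPM in HDM+APM and 131 CPM in HDM, a ratio of 0.694 (0.461 to 1.04) whose interval included 1. In HDM+APM over APM, Apoe, a lipid carrier and Trem2 ligand, was 562 CPM in HDM+APM and 2110 CPM in APM, 3.76-fold lower (3.26 to 4.33).

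Within a library, Macrophage 8 was compared with the other macrophage clusters. Gpnmb was 281 CPM in Macrophage 8 and 552 CPM in the pooled clusters of the HDM library, and 235 CPM in Macrophage 8 and 494 CPM in the pooled clusters of control. In the APM library Gpnmb was 305 CPM in Macrophage 8 and 353 CPM in the pooled clusters, a ratio of 0.864 whose interval included 1. Axl was lower in Macrophage 8 in all 3 libraries that allowed a ratio, by 1.61-fold (1.29 to 2.00) in HDM, 1.74-fold (1.39 to 2.19) in APM and 1.45-fold (1.10 to 1.95) in control. Trem2 did not follow: it was 162 CPM in Macrophage 8 and 85.7 CPM in the pooled clusters of APM, 1.89-fold higher (1.40 to 2.50), with an interval that included 1 in HDM and control. Members past 1.5-fold numbered 4 lower in HDM, where 12.6% of genes were lower, 1 lower and 1 higher in APM, where 8.63% and 8.08% were, and 3 lower in control, where 14.1% were.

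The cells named classical monocyte had a receptor set unlike that of Macrophage 8 of their own library. Msr1 was 156 CPM in the cells named classical monocyte and 22.2 CPM in Macrophage 8, 7.05-fold higher (3.87 to 14.3). Cd36 was 306 CPM in the cells named classical monocyte and 201 CPM in Macrophage 8, 1.52-fold higher (1.22 to 1.90). Mertk, at 60.4 CPM in the cells named classical monocyte and 64.4 CPM in Macrophage 8, had a ratio of 0.937 (0.623 to 1.44).

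The other 5 members were lower in the cells named classical monocyte. Marco was 15.9 CPM in them and 64.4 CPM in Macrophage 8, 4.06-fold lower (2.35 to 7.10), and Cd68 was 138 CPM in them and 338 CPM in Macrophage 8, 2.44-fold lower (1.99 to 3.00). Axl was 16.5 CPM against 352 CPM in Macrophage 8, 21.4-fold lower (14.2 to 33.4). Trem2 was 4.27 CPM against 90.6 CPM, 21.2-fold lower (9.50 to 55.8), and Gpnmb was 12.8 CPM against 286 CPM, 22.3-fold lower (14.1 to 37.2). By the 1.5-fold count, 1 of 8 members was higher and 5 were lower, against 14.4% and 24% of 7180 genes measured. Cd36 fell just short, at a log2 ratio of 0.58, and Mertk was not past it. The members' median log2 ratio was -1.38, against -0.15 over all genes. Both classes come from 1 library, and which class a cell entered was decided on all genes. Median depth was 5270 UMIs in the cells named classical monocyte and 4840 in Macrophage 8. Alveolar macrophage markers summed to 13445 CPM in the cells named classical monocyte and 42151 CPM in Macrophage 8, with all 14 measured past 1.5-fold lower. In the same order, epithelial markers summed to 1041 and 1903 CPM and dendritic cell markers to 79.9 and 1035 CPM. Cavity macrophage markers summed to 9024 and 483 CPM, with all 13 measured higher. Monocyte-derived macrophage markers summed to 10947 and 3083 CPM, with 11 of 14 higher and 3 lower. Monocyte markers summed to 7102 and 1859 CPM and granulocyte markers to 3147 and 1001 CPM. The part of these lists was not tested.

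The Msr1 signal was spread over many cells. Of the 308 cells named classical monocyte, 58.8% held an Msr1 UMI (53.0 to 64.3) and 74.7% a Cd36 UMI (69.4 to 79.4), at a median depth of 5270 UMIs. In B cells 2 of the same library, at a median depth of 5447.5 UMIs, 1.24% of 404 cells held an Msr1 UMI (0.403 to 2.86) and 12.9% a Cd36 UMI (9.76 to 16.5). Both shares in the cells named classical monocyte were therefore well above the level in a lymphocyte of like depth. Thinned to 1000 UMIs, 12.0% of the cells named classical monocyte held Msr1 and 27.6% Cd36, against 4.65% and 15.1% of 86 Macrophage 8 cells. Of the 181 cells with an Msr1 UMI, 142 also held a Cd36 UMI, 54 a Mertk UMI, 17 an Axl UMI and 3 a Marco UMI. Among all 308 cells, 230 held a Cd36 UMI, 83 a Mertk UMI, 26 an Axl UMI and 17 a Marco UMI. Whether these genes go together within cells was not tested.

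**Figure D4:**
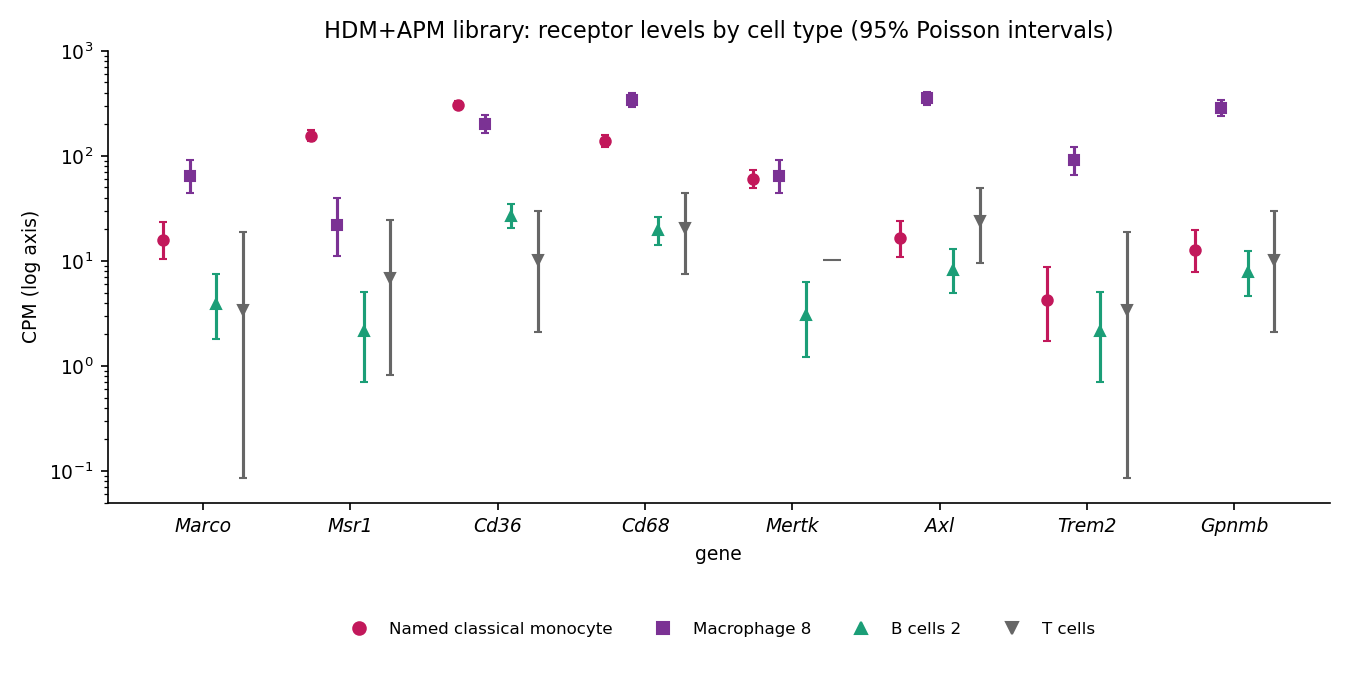
CPM of each receptor (horizontal axis) on a log axis in 4 cell types of the HDM+APM library, with exact Poisson 95% intervals; a dash without a point marks the level that 0 UMIs allows (3 counts). The cells named classical monocyte lie above Macrophage 8 for Msr1, beside it for Mertk, and near the lymphocytes for Axl, Trem2 and Gpnmb.

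Of the members' partners, most measured bridging molecules were higher in the same cells, while other dead-cell receptors went both ways. Of 9 measured bridging molecules 6 were past 1.5-fold higher in the cells named classical monocyte than in Macrophage 8 and 2 were lower, with a median log2 ratio of 1.32. Thbs1, which links dying cells to Cd36 and integrins, was 813 CPM in the cells named classical monocyte and 52.4 CPM in Macrophage 8, 15.5-fold higher (10.5 to 23.9). The complement subunit genes C1qc and C1qb were 2024 and 2045 CPM in the cells named classical monocyte, against 250 and 290 CPM in Macrophage 8. Pros1, a ligand of Mertk, was 217 CPM in the cells named classical monocyte and 101 CPM in Macrophage 8. Of 9 other dead-cell receptors 5 were higher and 3 lower, with a median of 0.74, where 14.4% of all genes were higher and 24% lower. Timd4, a phosphatidylserine receptor, was 126 CPM in the cells named classical monocyte and 12.1 CPM in Macrophage 8, 10.4-fold higher (4.70 to 28.7), and Cd300lf was 10.4 CPM in them and 121 CPM in Macrophage 8.

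Among 8 other scavenger receptors 1 was higher and 4 were lower in the cells named classical monocyte. Cd5l, a secreted scavenger-family protein, was 1190 CPM in them and 68.5 CPM in Macrophage 8, 17.4-fold higher (12.4 to 25.2), whereas Mrc1 was 20.7 CPM in them and 576 CPM in Macrophage 8, and Olr1 was 3.66 CPM in them and 113 CPM in Macrophage 8. Genes for handling cargo lipid had 1 of 14 measured higher and 8 lower, with Lpl, lipoprotein lipase, at 78.7 CPM in the cells named classical monocyte and 1150 CPM in Macrophage 8, and Abcg1, a cholesterol exporter, at 26.2 CPM in the cells named classical monocyte and 393 CPM in Macrophage 8. All 16 lipid-associated macrophage genes were past 1.5-fold. Of these, 13 were lower and 3 were higher, namely Fabp4, Apoe and Tyrobp, the last at 3552 CPM in the cells named classical monocyte and 2340 CPM in Macrophage 8, where Trem2 itself was at 4.27 and 90.6 CPM. Of 8 shedding and brake genes 1 was higher and 5 were lower, including Sirpa, the receptor for the "do not eat me" signal Cd47, at 105 CPM in the cells named classical monocyte and 342 CPM in Macrophage 8. Engulfment signalling genes had 5 of 14 higher and 3 lower, and transcription factors tied to the members 2 of 15 higher and 5 lower, with Maf at 90.9 CPM in the cells named classical monocyte and 16.1 CPM in Macrophage 8.

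The number of members seen per cell, with every cell thinned to 1000 UMIs, differed by class. Macrophage 3 had a mean of 2.09 of the 8 members per cell, with 37.0% of its cells holding 3 or more. The pooled clusters had 1.98 in HDM+APM, 1.70 in HDM, 1.59 in APM and 1.73 in control, and Macrophage 8 had 1.06, 1.14, 1.37 and 1.35 in the same libraries. The cells named classical monocyte had 0.591, dendritic cells 0.36 and T cells 0.0662. At this depth 53.9% of the cells named classical monocyte showed none of the 8 members, against 8.33% of Macrophage 3 cells.

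Summed over all cells, the members' levels depend on which cells each library held. Marco was 29.6 CPM in HDM+APM, 35.9 CPM in HDM, 392 CPM in APM and 302 CPM in control, and Gpnmb was 62.3, 154, 343 and 489 CPM in the same libraries. Msr1 was the member with the reverse order, at 53.9 CPM in HDM+APM, 9.89 CPM in HDM, 7.22 CPM in APM and 6.26 CPM in control, and 256 of its 280 HDM+APM UMIs lay in the cells named classical monocyte. In such sums fewer cells of a type and less RNA per cell cannot be told apart.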

How the data were processed

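Airspace cells of 4 groups, 1 library of 7 pooled mice each, were profiled with the 10x Genomics 3′ v2 kit, per the labels' protocols. The authors deposited UMI counts per gene and cell, not normalized, with a table of each cell's library and cell type. Per the submitters' processing notes, mm10 was the genome build, and the tools included Cell Ranger 2.2.0 and Seurat 2.3.4. All 9925 deposited cells were kept, no doublet caller was run and cell types were taken from the deposited refined names, which in 23 cells disagree with the coarse name (epithelial). The members, gene lists and comparisons were chosen with earlier results of these data known.

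UMIs were summed per class and library with Python 3.11.15, numpy 2.4.6, scipy 1.17.1 and pandas 2.3.3 and scaled to CPM. A CPM has an exact Poisson interval, a ratio an exact conditional binomial one and a share of cells a Clopper-Pearson one, each at 95%. Ratios needed 50 cells in both classes, or 20 within the mean with equal cluster shares. Past 1.5-fold means on the log2(CPM + 10) scale with at least 20 UMIs over both sums. The steps were tested on simulated counts. CPM of 3′ UMI counts was not scaled by gene length, so levels of different genes are not ranked against each other. Named genes are the 8 members, the 3 genes nearest each by Pearson r across 17 types (at least 50 CPM in 1 type and 50 UMIs in all) and up to 3 genes per pathway list with the largest log2 ratio past 1.5-fold; Spp1 (APM over control), Pros1, Fabp4, Apoe and Tyrobp (cells named classical monocyte over Macrophage 8) were named outside that rule, after their values were seen. Alternatives were pseudocounts of 1 and 50 CPM, no UMI minimum, deeper or thinned cells, the mean over cells, median-of-ratios scaling, subtraction of 5% free RNA, leaving out the deepest 5% of cells, equal cluster shares, all macrophage clusters as 1 class and, added after seeing the data, leaving out the 23 cells.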

Additional observations from a re-analysis of the deposited data

How the results depend on the processing

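No paired analysis was possible because each group has 1 library. Counts of members past 1.5-fold changed as follows. In the pooled clusters, APM over control had 1, and 0 with equal cluster shares. In Macrophage 8, APM over control had 1, but 0 with a pseudocount of 50 CPM, 3 in cells thinned to 1000 UMIs and 2 as a mean over cells. HDM over control had 5, and 3 in thinned cells and 3 as a mean over cells. HDM+APM over HDM had 2, but 1 with a pseudocount of 50 CPM, 0 as a mean over cells and 0 without the 5% of cells with the most UMIs. HDM+APM over APM had 2, and 1 as a mean over cells. For HDM over control in the pooled clusters (4) and the cells named classical monocyte over Macrophage 8 (6), each alternative run gave a count within 1.5 times the main one. The members counted in the pooled HDM over control comparison did change. In thinned cells Marco, at -0.57, and Cd36, at 0.47, were no longer past 1.5-fold. Axl, at 0.65, and Msr1, at -0.84 against 0.40 in the main setting, were past it there. Of 485 member ratios under alternatives, 50 left the counting interval of the main ratio, 19 changed sign and 42 changed side of 1.5-fold, but none of those past 1.5-fold reversed. Equal cluster shares were not run for HDM over control, where no cluster had 20 cells in both libraries. Median-of-ratios scaling shifted log2 ratios by -0.18 for HDM over control in the pooled clusters, 0.15 for HDM over control and 0.11 for HDM+APM over HDM in Macrophage 8, and 0.28 for the cells named classical monocyte over Macrophage 8. There it put Cd36 at 0.85, past 1.5-fold, and turned the sign of Mertk to 0.16. The cause of these changes was not tested. Members with few UMIs, such as Msr1 outside the cells named classical monocyte, are limited by depth.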
